A study of Homo sapiens with 16 samples.

Results

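The DNA replication machinery was followed here as 45 genes, from the complexes that mark origins to the factors that load histones behind the fork. Every gene was taken from its probe set with that gene as the only symbol, and each of the 45 had exactly 1 such probe set, out of 22395 genes with a probe set of their own. All 45 were among the 15676 genes tested, the upper 70% by mean level, and their mean log2 levels lay between 5.64 and 10.17, against a lowest mean of 1.65 among the tested genes. The genes fall into 8 steps: origin recognition and licensing (9 genes), the MCM helicase core (6), helicase activation (6), polymerases (9), the clamp and its loader (6), single-strand binding (3), flap processing and ligation (4), and chromatin assembly (2).

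Replication is licensed in G1, when the origin recognition complex, CDC6 and CDT1 load the hexameric MCM ring onto DNA, and geminin restrains CDT1 afterwards. In S phase CDC45 and the GINS complex join the ring to form the active helicase, polymerase alpha with its primase lays primers, and polymerases epsilon and delta extend the leading and lagging strands on the PCNA clamp. Many of these genes are transcribed under E2F factors as cells commit to S phase, and colorectal carcinoma lines in growth medium express them at high levels. Glutamine donates nitrogen to purine and pyrimidine synthesis, so its supply is tied to S phase.

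The cells were DLD1 and HCT116, established human colorectal carcinoma lines, each used in 2 isogenic forms with a single kind of PIK3CA allele (PIK3CA encodes a catalytic subunit of phosphoinositide 3-kinase). The Mut form lacks the wild-type allele by knockout and keeps the mutant one, and the WT form lacks the mutant allele by knockout and keeps the wild-type one. All 4 derivatives are therefore knockout lines, and the labels do not say whether each is 1 clone. Each derivative was kept for 24 h without or with glutamine in DMEM with 10% dialyzed fetal bovine serum. The 8 groups (DLD1 Mut, DLD1 WT, HCT116 Mut and HCT116 WT, each without and with glutamine) had 2 biological replicates, 16 arrays in all. Total RNA was labelled by the Affymetrix whole-transcript protocol, and PIK3CA itself was not analysed here. The precision is limited by 2 arrays a group: replicates differed by a median of 0.09 on the log2 scale over the 45 genes and 8 groups, and by at most 0.59. Array medians were 3.57 to 3.70 on the linear scale of the deposited intensities, and replicates correlated at 0.989 to 0.992 across genes. The epithelial markers EPCAM, CDH1 and KRT19 were bright, with mean log2 levels of 10.80, 10.11 and 9.89 over both lines. With glutamine CDH17, CDH1 and CDX2 were higher in DLD1 than in HCT116 cells, by 7.02, 2.47 and 2.34. EPCAM, VIL1 and LGALS4 were also higher, by 0.52 to 1.25. KRT19 was lower (-0.38), and KRT8, KRT18 and CDX1 were not called. The epithelial sum of intensities was 5364 to 7440 in DLD1 and 3007 to 3955 in HCT116 cells. VIL1, CDX1 and LGALS4 were dim, with means of 2.03, 2.56 and 2.93, and 2 of 7 fibroblast, 2 of 7 leukocyte and 1 of 5 endothelial markers with a probe set reached the tested range. Summed intensities were 22.8 to 29.7 for the fibroblast and 14.5 to 19.5 for the endothelial markers on all arrays. The leukocyte sum was 188 to 197 without and 88.0 to 96.4 with glutamine in HCT116 Mut cells, and 221 to 238 without and 129 to 133 with glutamine in HCT116 WT cells. It was 37.3 to 40.0 without and 46.6 to 59.6 with glutamine in DLD1 Mut cells, and 50.9 to 54.1 without and 38.9 to 45.8 with glutamine in DLD1 WT cells. The 2 leukocyte markers in the tested range were CD68 and HLA-DRA. On withdrawal CD68 changed by 1.2 in HCT116 Mut, 0.96 in HCT116 WT, 0.59 in DLD1 WT and -0.25 (not called) in DLD1 Mut cells. HLA-DRA changed the other way in HCT116 WT cells (-0.98). The part of these markers in the results below was not tested. In bulk RNA, fewer cells in S phase and less RNA of a gene per cell cannot be told apart.

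Promoters are shown with their motif matches for GINS2 and LIG1, the genes with the largest average fall in the helicase activation and ligation steps, and for MCM7, whose average fall was second to that of MCM4 in the MCM core, since E2F and NF-Y are the factors best known at such promoters. The windows are RefSeq sequences of build GRCh38.p14, 250 bases before to 50 bases after the gene start, 5′ to 3′ on the gene's strand. All 3 genes lie on the minus strand, MCM7 at chr7:100101348-100101647, GINS2 at chr16:85688905-85689204 and LIG1 at chr19:48170295-48170594. Capitals mark exact matches, on either strand, to the E2F letters TTTCCCGC, TTTCGCGC, TTTGCCGC or TTTGGCGC or to the NF-Y box CCAAT.
MCM7: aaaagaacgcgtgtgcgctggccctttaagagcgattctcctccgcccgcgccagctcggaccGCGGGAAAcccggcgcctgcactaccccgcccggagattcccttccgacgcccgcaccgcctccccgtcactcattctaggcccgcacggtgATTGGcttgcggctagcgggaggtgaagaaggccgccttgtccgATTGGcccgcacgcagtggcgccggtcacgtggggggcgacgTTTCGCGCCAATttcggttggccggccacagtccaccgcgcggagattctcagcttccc
GINS2: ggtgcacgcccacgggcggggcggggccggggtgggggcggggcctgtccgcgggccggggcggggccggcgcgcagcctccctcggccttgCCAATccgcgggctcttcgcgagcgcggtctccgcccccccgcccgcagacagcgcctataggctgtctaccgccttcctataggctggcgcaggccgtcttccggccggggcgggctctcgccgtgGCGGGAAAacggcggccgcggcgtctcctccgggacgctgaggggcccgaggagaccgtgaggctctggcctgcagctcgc
LIG1: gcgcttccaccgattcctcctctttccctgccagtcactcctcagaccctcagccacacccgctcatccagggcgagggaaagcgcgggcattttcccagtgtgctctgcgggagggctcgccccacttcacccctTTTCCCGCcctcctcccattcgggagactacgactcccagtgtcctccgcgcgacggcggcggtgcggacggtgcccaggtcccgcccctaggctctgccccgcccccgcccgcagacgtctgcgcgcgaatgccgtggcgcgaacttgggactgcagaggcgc
In the MCM7 window the E2F letters occurred at -187 and at -9 from the gene start, and CCAAT at -95, -51 and -2, the last sharing a base with the E2F match beside it. GINS2 had an E2F match at -31 and a CCAAT at -158, and LIG1 had an E2F match at -114 and no CCAAT. RefSeq windows were matched to 38 of the 45 genes. E2F letters were present in 17 of the 38 (44.7%), and in 908 of 27305 promoters of all genes (3.33%). CCAAT was present in 22 of the 38 (57.9%), and in 35.7% of all promoters. The CHR element TTTGAA, a feature of many G2/M promoters, was in 0 of the 38 windows and in 15.4% of all promoters. These matches are letters in a window and not measured binding. The median average change on withdrawal was -0.77 for the 17 genes with E2F letters and -0.83 for the 21 without.

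**Figure D1:**
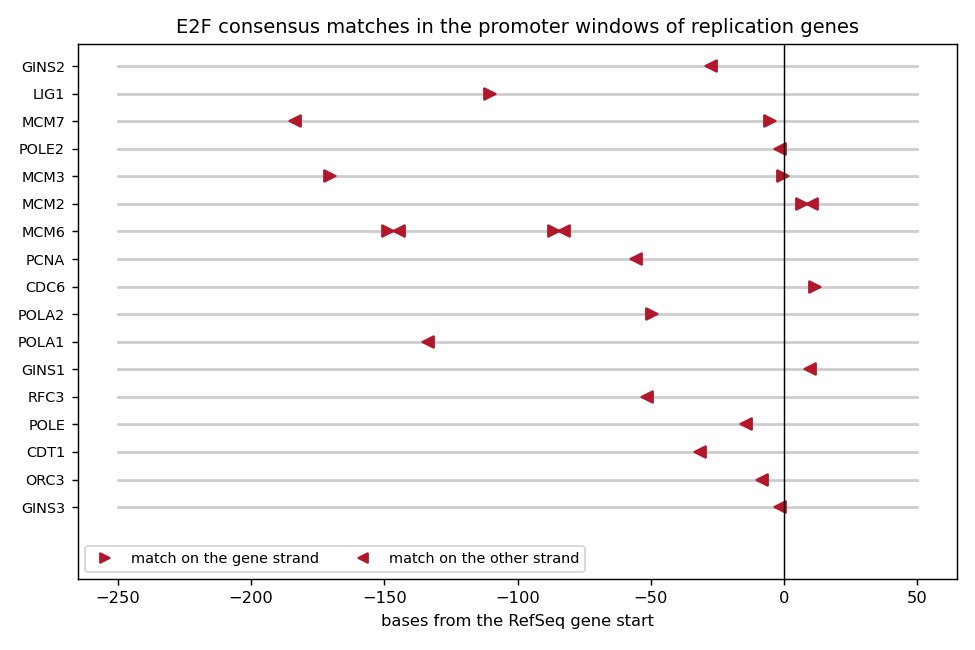
Position of each E2F letter match (centre of the match, in bases from the RefSeq gene start on the x axis) in the 17 replication genes that hold any, ordered by average fall from the top. Right-pointing triangles are matches on the gene strand and left-pointing ones on the other strand, grey lines are the windows searched, and MCM6 holds 4 matches in 2 overlapping pairs.

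Without glutamine the replication genes were lower almost throughout. On the average of the 4 derivatives 42 of the 45 fell and 0 rose, with a median log2 change of -0.83, while 23.5% of all tested genes fell, 24.3% rose and the median over all tested genes was 0.00. A gene was called where limma's Benjamini-Hochberg adjusted p over all tested genes was under 0.05. The 3 genes not called were ORC4 (-0.12), POLD3 (-0.10) and RPA2 (-0.14). No gene rose at an unadjusted limma p under 0.05 either (0 of 45), and all 42 calls held under every alternative setting tried.

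In DLD1 Mut cells 38 of 45 fell, with a median of -0.83, and 0 rose, against 16.8% of all tested genes in each direction. In DLD1 WT cells 32 fell and 2 rose, with a median of -0.38, against 13.0% and 14.0% of all tested genes. In HCT116 Mut cells 40 fell and 0 rose (median -0.80), against 16.5% and 16.4%, and in HCT116 WT cells 41 fell and 0 rose (median -1.18), against 10.1% and 10.3%. At an unadjusted limma p under 0.05 the numbers that rose in these 3 derivatives were also 0. The count in DLD1 WT cells rested on few arrays: it was 15 without replicate 2 and 20 without replicate 1 of the group without glutamine, and 18 and 23 without replicates 1 and 2 of the group with it. Of the 45 genes, 31 fell in all 4 derivatives, as did 3.67% of all tested genes, 7 fell in 3, RPA3 fell in 2, ORC2, GINS3, POLD3 and RPA2 fell in 1, and ORC4 and ORC5 were called in none. The largest fall was in HCT116 WT cells for 25 genes, in DLD1 Mut cells for 10, in HCT116 Mut cells for 9 and in DLD1 WT cells for 1.

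**Figure D2:**
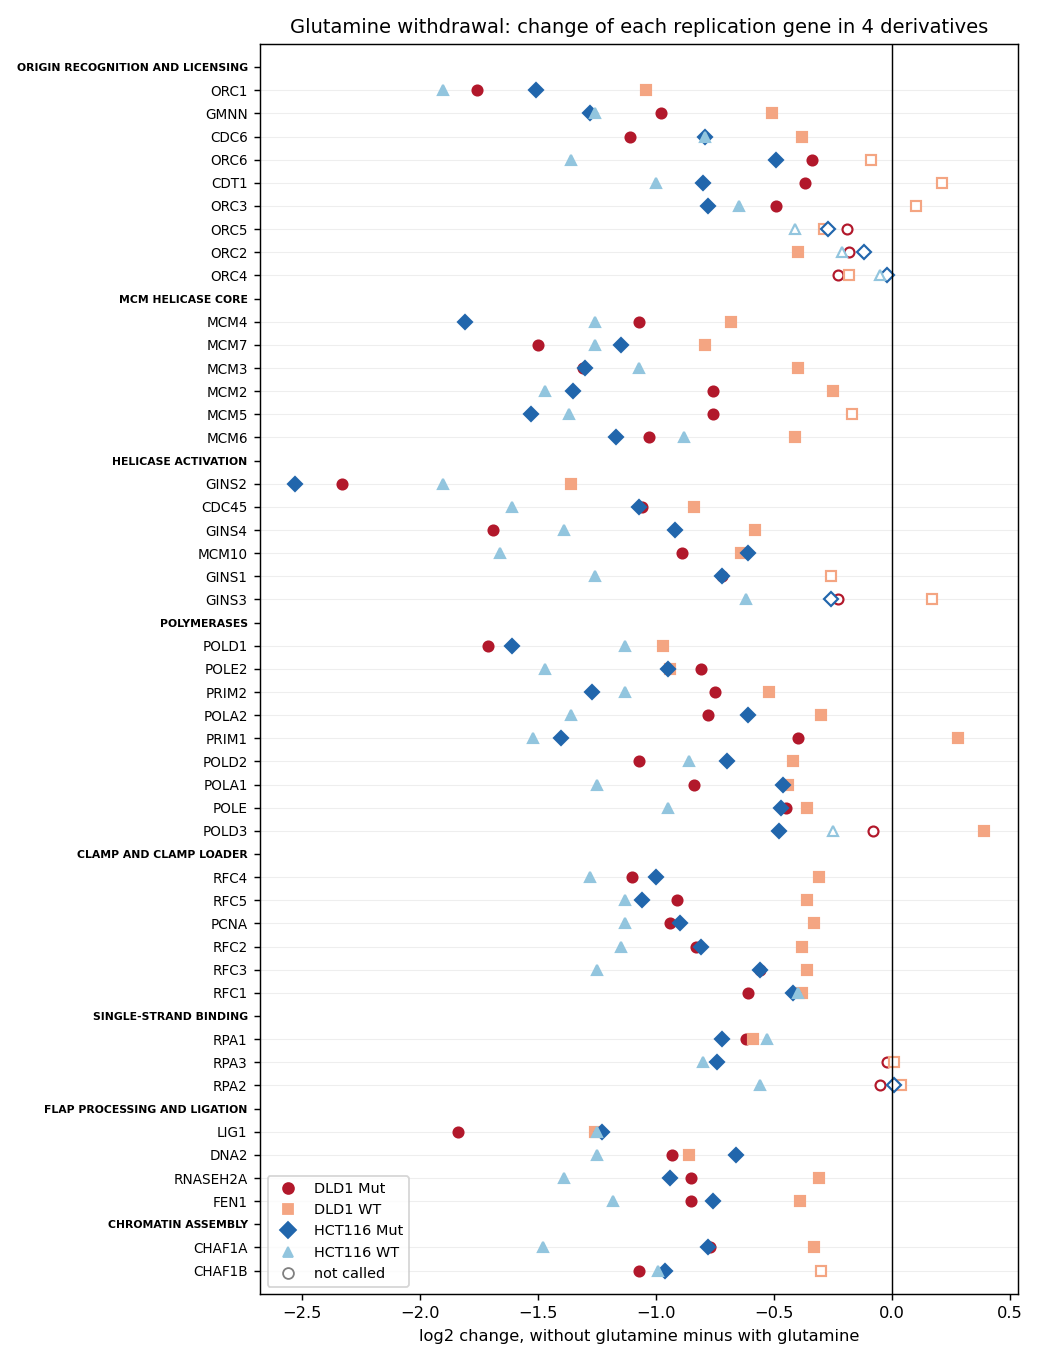
Log2 change on glutamine withdrawal (x axis) of each of the 45 genes (rows, by step and then by average change) in DLD1 Mut, DLD1 WT, HCT116 Mut and HCT116 WT cells. Filled symbols are called and open ones are not; nearly all symbols lie left of 0, GINS2 reaches -2.53 in HCT116 Mut cells, and POLD3 has called changes on both sides of 0.

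By step, the average change had a median of -0.49 over the 9 licensing genes, -0.99 over the MCM core, -1.05 over helicase activation, -0.76 over the polymerases, -0.81 over the clamp and loader, -0.39 over single-strand binding, -0.90 over flap processing and ligation, and -0.84 over chromatin assembly. The spread within a step was wide. The licensing genes ran from -1.55 (ORC1) to -0.12 (ORC4), the polymerases from -1.36 (POLD1) to -0.10 (POLD3), and helicase activation from -2.03 (GINS2) to -0.24 (GINS3), while the MCM core kept within -1.21 and -0.87.

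Origin recognition and licensing held both a gene with a large fall and several with small ones. ORC1 is the ATPase subunit of the origin recognition complex whose level follows the cell cycle. Its log2 level was 6.71 and 6.85 without glutamine against 8.58 and 8.51 with it in DLD1 Mut cells, and 7.03 and 7.05 without against 8.10 and 8.05 with glutamine in DLD1 WT cells. It was 6.54 and 6.53 without glutamine against 8.14 and 7.95 with it in HCT116 Mut cells, and 5.82 and 6.26 without against 7.92 and 7.95 with glutamine in HCT116 WT cells. No array without glutamine reached an array with it in any derivative, and the average fall was -1.55 (SE 0.07, 2.93-fold, adjusted p = 3.77e-08). ORC2, ORC4 and ORC5, core subunits of the same complex, moved little. ORC2 was at 7.91 and 8.01 without glutamine against 8.19 and 8.09 with it in DLD1 Mut cells, and 7.61 and 7.59 without against 8.03 and 7.97 with glutamine in DLD1 WT cells. On the HCT116 arrays the level was 7.62 and 7.68 without glutamine against 7.73 and 7.82 with it in HCT116 Mut cells, and 7.63 and 7.56 without against 7.83 and 7.79 with glutamine in HCT116 WT cells. Its largest change was -0.40 in DLD1 WT cells, the single derivative in which it was called. ORC4 was at 7.25 and 7.40 without glutamine against 7.49 and 7.62 with it in DLD1 Mut cells, and 7.51 and 7.46 without against 7.66 and 7.68 with glutamine in DLD1 WT cells. It stood at 7.02 and 7.10 without glutamine against 7.18 and 6.98 with it in HCT116 Mut cells, and 7.21 and 6.90 without against 7.19 and 7.03 with glutamine in HCT116 WT cells, where the arrays of both conditions overlapped. ORC5 was at 8.15 and 8.20 without glutamine against 8.30 and 8.44 with it in DLD1 Mut cells, and 8.05 and 7.95 without against 8.45 and 8.14 with glutamine in DLD1 WT cells. Its levels were 7.79 and 7.72 without glutamine against 8.07 and 7.99 with it in HCT116 Mut cells, and 7.26 and 7.62 without against 7.94 and 7.76 with glutamine in HCT116 WT cells, and its changes ran between -0.19 in DLD1 Mut and -0.41 in HCT116 WT cells. It was called on average (-0.29, adjusted p = 0.0048) but in none of the derivatives. ORC3, another core subunit, fell in 3 derivatives, by -0.49 in DLD1 Mut, -0.78 in HCT116 Mut and -0.65 in HCT116 WT cells, and had a change of 0.10 in DLD1 WT cells.

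ORC6, the subunit least tightly bound to the complex, stood apart in HCT116 WT cells. The HCT116 arrays read 7.41 and 7.52 without glutamine against 7.95 and 7.97 with it in HCT116 Mut cells, and 5.84 and 5.72 without against 7.02 and 7.27 with glutamine in HCT116 WT cells. In the other line the levels were 7.80 and 7.58 without glutamine against 8.0 and 8.06 with it in DLD1 Mut cells, and 7.81 and 7.96 without against 8.0 and 7.95 with glutamine in DLD1 WT cells. The 2 HCT116 WT arrays without glutamine were the lowest of the 16, and the change there was -1.36 (SE 0.11, adjusted p = 2.45e-05). CDC6, the ATPase that loads the MCM ring with CDT1, was at 7.55 and 7.62 without glutamine against 8.71 and 8.68 with it in DLD1 Mut cells, and 8.47 and 8.58 without against 8.87 and 8.94 with glutamine in DLD1 WT cells. In HCT116 it stood at 8.12 and 8.17 without glutamine against 8.95 and 8.94 with it in HCT116 Mut cells, and 8.0 and 7.86 without against 8.71 and 8.74 with glutamine in HCT116 WT cells, and the groups did not overlap in any derivative. CDT1 was at 8.20 and 8.15 without glutamine against 8.88 and 9.07 with it in HCT116 Mut cells, and 7.84 and 7.79 without against 8.75 and 8.87 with glutamine in HCT116 WT cells. In DLD1 cells, by contrast, it was at 7.52 and 7.72 without glutamine against 8.06 and 7.92 with it in DLD1 Mut cells, and 7.98 and 7.95 without against 7.84 and 7.67 with glutamine in DLD1 WT cells, changes of -0.37 (called) and 0.21 (not called). GMNN encodes geminin, the inhibitor of CDT1. For DLD1 the values were 6.61 and 6.61 without glutamine against 7.58 and 7.60 with it in DLD1 Mut cells, and 6.48 and 6.48 without against 7.02 and 6.96 with glutamine in DLD1 WT cells. In HCT116 cells it was at 6.23 and 6.44 without glutamine against 7.70 and 7.53 with it in HCT116 Mut cells, and 6.41 and 6.30 without against 7.50 and 7.72 with glutamine in HCT116 WT cells. Geminin fell in all 4 derivatives, by -0.51 in DLD1 WT cells and by -1.28 in HCT116 Mut cells.

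The MCM core genes encode the subunits of the ring that unwinds DNA, and 23 of their 24 changes were called lower. The exception was MCM5 in DLD1 WT cells (-0.17). MCM4 had the largest average fall, -1.21 (SE 0.05, adjusted p = 1.61e-08). Its levels were 8.97 and 9.06 without glutamine against 10.03 and 10.15 with it in DLD1 Mut cells, and 9.42 and 9.48 without against 10.18 and 10.07 with glutamine in DLD1 WT cells. Its HCT116 levels were 8.17 and 8.08 without glutamine against 9.96 and 9.92 with it in HCT116 Mut cells, and 8.54 and 8.63 without against 9.91 and 9.79 with glutamine in HCT116 WT cells. In HCT116 Mut cells every array without glutamine was over 1 log2 unit, 2-fold, below every array with it, and the change was -1.81. MCM7 was at 8.60 and 8.73 without glutamine against 10.15 and 10.18 with it in DLD1 Mut cells, and 8.94 and 9.16 without against 9.87 and 9.80 with glutamine in DLD1 WT cells. On the HCT116 arrays the level was 8.80 and 8.83 without glutamine against 9.94 and 9.99 with it in HCT116 Mut cells, and 8.68 and 8.66 without against 9.88 and 9.97 with glutamine in HCT116 WT cells. In DLD1 Mut cells MCM7 fell by more than the other MCM core genes (-1.5). MCM3 was at 8.18 and 8.18 without glutamine against 9.58 and 9.39 with it in DLD1 Mut cells, and 9.02 and 8.97 without against 9.44 and 9.35 with glutamine in DLD1 WT cells. The HCT116 arrays read 8.32 and 8.46 without glutamine against 9.72 and 9.67 with it in HCT116 Mut cells, and 8.60 and 8.55 without against 9.63 and 9.66 with glutamine in HCT116 WT cells. The WT arrays of DLD1 without glutamine lay between the Mut arrays without glutamine and both groups with it. MCM2, which also carries histones at the fork, was at 8.37 and 8.35 without glutamine against 9.11 and 9.12 with it in DLD1 Mut cells, and 8.76 and 8.78 without against 9.04 and 9.0 with glutamine in DLD1 WT cells. In HCT116 it stood at 7.81 and 7.90 without glutamine against 9.13 and 9.28 with it in HCT116 Mut cells, and 7.57 and 7.57 without against 9.07 and 9.02 with glutamine in HCT116 WT cells. MCM5, which forms the gate of the ring with MCM2, was at 8.92 and 8.94 without glutamine against 9.71 and 9.68 with it in DLD1 Mut cells, and 9.25 and 9.33 without against 9.48 and 9.44 with glutamine in DLD1 WT cells. Its levels were 8.24 and 8.11 without glutamine against 9.73 and 9.70 with it in HCT116 Mut cells, and 8.31 and 8.45 without against 9.72 and 9.77 with glutamine in HCT116 WT cells. For both gate genes the fall was larger in HCT116 than in DLD1 cells, as tested below. MCM6 had the smallest average fall of the core, -0.87, and was at 8.94 and 8.94 without glutamine against 9.94 and 10.0 with it in DLD1 Mut cells, and 9.38 and 9.36 without against 9.80 and 9.76 with glutamine in DLD1 WT cells. In HCT116 cells MCM6 was at 8.39 and 8.34 without glutamine against 9.58 and 9.48 with it in HCT116 Mut cells, and 8.62 and 8.66 without against 9.50 and 9.54 with glutamine in HCT116 WT cells, with no overlap between the conditions.

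Helicase activation had the largest single falls. GINS2, a subunit of the 4-protein GINS complex, fell by -2.03 on average (SE 0.06, 4.08-fold, adjusted p = 6.99e-09). Its levels were 5.82 and 5.58 without glutamine against 8.18 and 7.88 with it in DLD1 Mut cells, and 6.39 and 6.37 without against 7.77 and 7.71 with glutamine in DLD1 WT cells. For HCT116 the values were 5.62 and 5.52 without glutamine against 8.13 and 8.07 with it in HCT116 Mut cells, and 6.19 and 6.17 without against 7.98 and 8.18 with glutamine in HCT116 WT cells. The conditions lay over 1 log2 unit apart in every derivative. The partners did not share this size of change. GINS3 was at 7.67 and 7.78 without glutamine against 7.89 and 8.02 with it in DLD1 Mut cells, and 7.98 and 7.92 without against 7.77 and 7.79 with glutamine in DLD1 WT cells. Its HCT116 levels were 7.26 and 7.60 without glutamine against 7.69 and 7.69 with it in HCT116 Mut cells, and 6.55 and 6.67 without against 7.14 and 7.31 with glutamine in HCT116 WT cells. Of its 4 changes the -0.62 in HCT116 WT cells was called, and the average was -0.24 (adjusted p = 0.00675). GINS4 was at 5.61 and 5.84 without glutamine against 7.40 and 7.43 with it in DLD1 Mut cells, and 6.60 and 6.44 without against 7.02 and 7.17 with glutamine in DLD1 WT cells. On the HCT116 arrays the level was 5.42 and 5.25 without glutamine against 6.36 and 6.16 with it in HCT116 Mut cells, and 5.06 and 4.86 without against 6.26 and 6.45 with glutamine in HCT116 WT cells. Its changes ran from -1.69 in DLD1 Mut cells to -0.58 in DLD1 WT cells. GINS1 fell on average by -0.74 and CDC45, which joins GINS on the ring, by -1.15. MCM10, needed for the activated helicase to start unwinding, was at 8.29 and 8.30 without glutamine against 8.89 and 8.92 with it in HCT116 Mut cells, and 7.10 and 7.23 without against 8.85 and 8.80 with glutamine in HCT116 WT cells. In DLD1 cells it was at 7.89 and 8.04 without glutamine against 8.99 and 8.73 with it in DLD1 Mut cells, and 8.02 and 8.21 without against 8.75 and 8.75 with glutamine in DLD1 WT cells. The 2 HCT116 WT arrays without glutamine were the lowest of the 16 and lay apart from the rest.

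**Figure D3:**
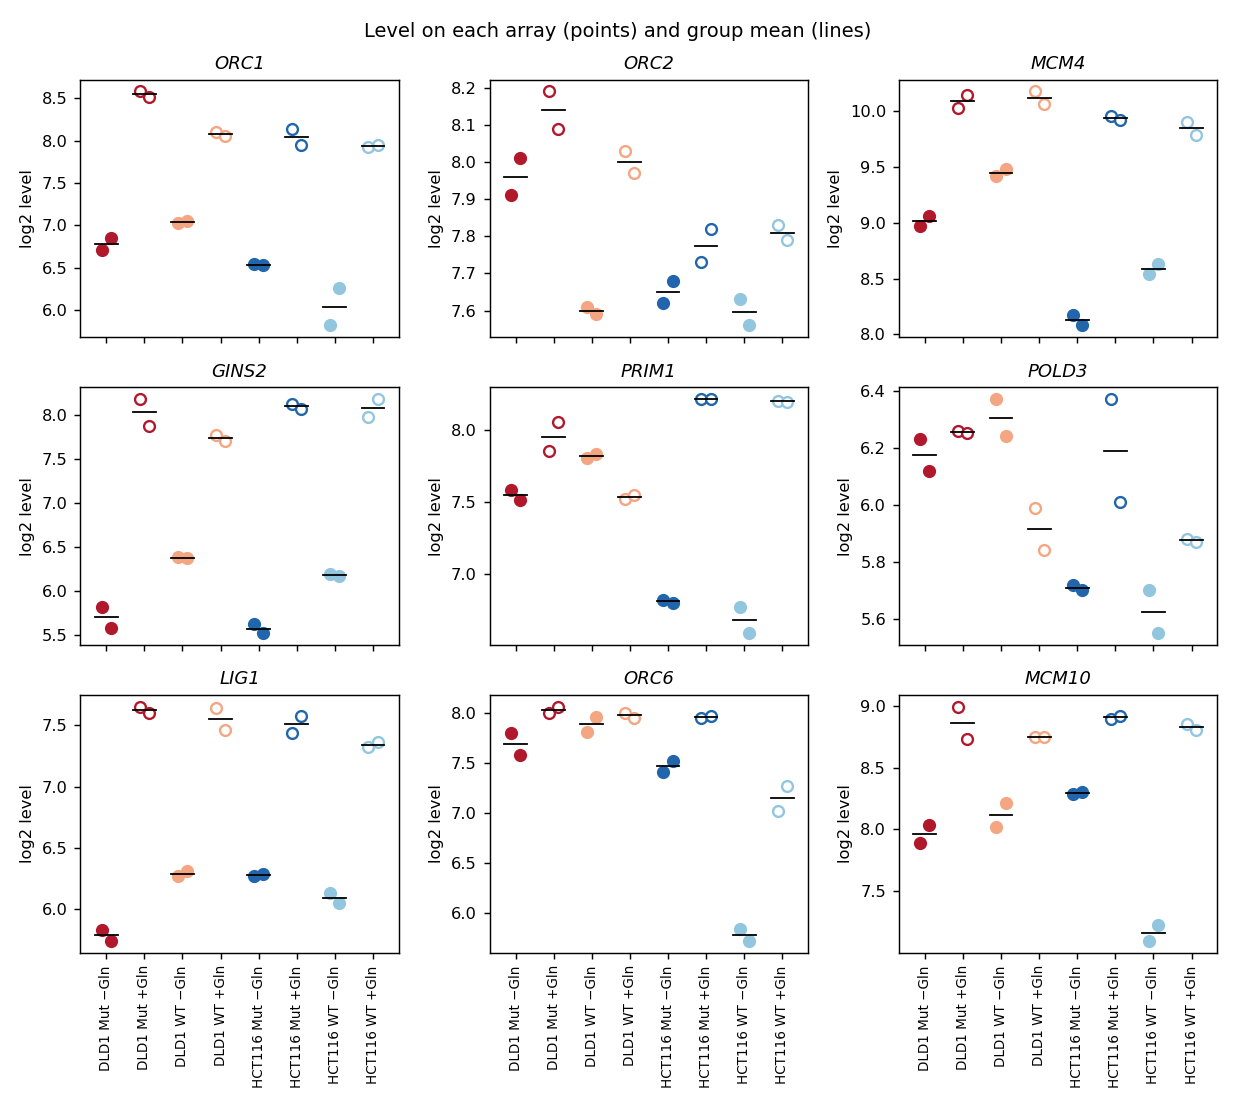
Log2 level (y axis) of 9 replication genes on each of the 16 arrays. Points are arrays, filled without and open with glutamine, and lines are group means; GINS2 and LIG1 are lower without glutamine in all derivatives, PRIM1 is lower in HCT116 cells and higher in DLD1 WT cells, and ORC6 and MCM10 are lowest in HCT116 WT cells without glutamine.

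Among the polymerase genes POLD1, the catalytic subunit of polymerase delta, fell most, by -1.36 on average (SE 0.08, adjusted p = 2.24e-07). Its levels were 5.30 and 5.79 without glutamine against 7.20 and 7.31 with it in DLD1 Mut cells, and 6.23 and 6.04 without against 7.16 and 7.05 with glutamine in DLD1 WT cells. The HCT116 arrays read 5.34 and 5.20 without glutamine against 6.89 and 6.87 with it in HCT116 Mut cells, and 5.68 and 5.53 without against 6.86 and 6.61 with glutamine in HCT116 WT cells. POLD3, an accessory subunit of the same enzyme, did not follow. In DLD1 it stood at 6.23 and 6.12 without glutamine against 6.26 and 6.25 with it in DLD1 Mut cells, and 6.37 and 6.24 without against 5.99 and 5.84 with glutamine in DLD1 WT cells. For HCT116 the values were 5.72 and 5.70 without glutamine against 6.37 and 6.01 with it in HCT116 Mut cells, and 5.70 and 5.55 without against 5.88 and 5.87 with glutamine in HCT116 WT cells. POLD3 rose in DLD1 WT cells (0.39, adjusted p = 0.0341) and fell in HCT116 Mut cells (-0.48, adjusted p = 0.0103). Neither call was firm: the rise was lost when any 1 of the 4 DLD1 WT arrays was left out, and the fall was not called without replicate 1 with glutamine or replicate 2 without it (highest adjusted p of 0.175 and 0.0883). POLD2, the remaining delta subunit of the set, fell in all 4 derivatives, by -0.42 to -1.07.

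Polymerase alpha and primase lay the primers. PRIM1, the catalytic primase subunit, was at 7.58 and 7.51 without glutamine against 7.85 and 8.05 with it in DLD1 Mut cells, and 7.80 and 7.83 without against 7.52 and 7.55 with glutamine in DLD1 WT cells. Its HCT116 levels were 6.82 and 6.80 without glutamine against 8.21 and 8.21 with it in HCT116 Mut cells, and 6.77 and 6.59 without against 8.20 and 8.19 with glutamine in HCT116 WT cells. The HCT116 arrays without glutamine were over 1 log2 unit below those with it, while in DLD1 WT cells both arrays without glutamine were higher than both with it (0.28, adjusted p = 0.0479). That rise was not called under 18 of 25 alternatives, among them leaving out any 1 DLD1 WT array (highest adjusted p of 0.171). PRIM2, the partner subunit, fell in all 4 derivatives, by -0.52 in DLD1 WT and -1.27 in HCT116 Mut cells. POLA1, the catalytic subunit of polymerase alpha, was at 7.75 and 7.80 without glutamine against 8.34 and 8.12 with it in HCT116 Mut cells, and 6.94 and 6.88 without against 8.22 and 8.11 with glutamine in HCT116 WT cells. In DLD1 cells it was at 7.10 and 7.26 without glutamine against 8.01 and 8.03 with it in DLD1 Mut cells, and 7.55 and 7.22 without against 7.79 and 7.86 with glutamine in DLD1 WT cells. POLA2, its regulatory subunit, was at 6.41 and 6.41 without glutamine against 7.0 and 7.03 with it in HCT116 Mut cells, and 5.65 and 5.65 without against 7.08 and 6.93 with glutamine in HCT116 WT cells. Its DLD1 levels were 6.97 and 7.10 without glutamine against 7.83 and 7.80 with it in DLD1 Mut cells, and 7.56 and 7.46 without against 7.86 and 7.75 with glutamine in DLD1 WT cells. Both genes fell most in HCT116 WT cells, by -1.25 and -1.36. The leading-strand polymerase genes POLE and POLE2 fell in all 4 derivatives, on average by -0.56 and -1.04.

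All 6 genes of the clamp and its loader fell in all 4 derivatives. PCNA, the sliding clamp, fell by -0.94 in DLD1 Mut, -0.33 in DLD1 WT, -0.90 in HCT116 Mut and -1.13 in HCT116 WT cells. RFC4, a small subunit of the loader, had the largest average fall (-0.92). On the DLD1 arrays the level was 7.26 and 7.32 without glutamine against 8.35 and 8.44 with it in DLD1 Mut cells, and 8.08 and 8.14 without against 8.52 and 8.32 with glutamine in DLD1 WT cells. The HCT116 arrays read 8.09 and 7.97 without glutamine against 9.10 and 8.96 with it in HCT116 Mut cells, and 7.62 and 7.59 without against 8.89 and 8.89 with glutamine in HCT116 WT cells. RFC1, the large subunit particular to the PCNA loader, had the smallest (-0.45, SE 0.06). In DLD1 it stood at 8.24 and 8.45 without glutamine against 8.93 and 8.98 with it in DLD1 Mut cells, and 8.50 and 8.52 without against 8.86 and 8.92 with glutamine in DLD1 WT cells. For HCT116 the values were 8.58 and 8.54 without glutamine against 9.13 and 8.82 with it in HCT116 Mut cells, and 8.49 and 8.51 without against 8.85 and 8.94 with glutamine in HCT116 WT cells. RFC3 and RFC5 are further small subunits of the loader. RFC3 was at 8.50 and 8.62 without glutamine against 9.12 and 9.12 with it in HCT116 Mut cells, and 7.90 and 7.75 without against 9.14 and 9.02 with glutamine in HCT116 WT cells. In DLD1 cells it was at 8.20 and 8.28 without glutamine against 8.70 and 8.90 with it in DLD1 Mut cells, and 8.29 and 8.26 without against 8.68 and 8.61 with glutamine in DLD1 WT cells. RFC5 was at 7.71 and 7.63 without glutamine against 8.52 and 8.64 with it in DLD1 Mut cells, and 7.89 and 7.84 without against 8.21 and 8.24 with glutamine in DLD1 WT cells. Its HCT116 levels were 7.50 and 7.40 without glutamine against 8.52 and 8.50 with it in HCT116 Mut cells, and 7.18 and 7.25 without against 8.37 and 8.32 with glutamine in HCT116 WT cells. In DLD1 WT cells the 6 changes fell within -0.38 and -0.31, and in HCT116 WT cells 5 of the 6 ran between -1.13 and -1.28, with RFC1 at -0.40.

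The subunits of RPA, which coats single-stranded DNA, did not move alike. RPA1, the large DNA-binding subunit, was at 8.70 and 8.80 without glutamine against 9.38 and 9.37 with it in DLD1 Mut cells, and 8.79 and 8.75 without against 9.39 and 9.34 with glutamine in DLD1 WT cells. On the HCT116 arrays the level was 9.01 and 9.10 without glutamine against 9.80 and 9.74 with it in HCT116 Mut cells, and 9.02 and 9.15 without against 9.63 and 9.60 with glutamine in HCT116 WT cells. It fell in all 4 derivatives, by -0.53 to -0.72. RPA2, the middle subunit, was at 7.36 and 7.42 without glutamine against 7.32 and 7.57 with it in DLD1 Mut cells, and 6.98 and 7.25 without against 7.06 and 7.08 with glutamine in DLD1 WT cells. The HCT116 arrays read 7.55 and 7.74 without glutamine against 7.70 and 7.57 with it in HCT116 Mut cells, and 6.87 and 7.08 without against 7.55 and 7.52 with glutamine in HCT116 WT cells. The conditions overlapped in every derivative except HCT116 WT, where it fell (-0.56, adjusted p = 0.0106); this fall was not called without replicate 1 with glutamine or replicate 1 without it (highest adjusted p of 0.0808). RPA3, the small subunit, had changes of -0.02 in DLD1 Mut and 0.01 in DLD1 WT cells, and fell by -0.74 in HCT116 Mut and -0.80 in HCT116 WT cells.

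For flap processing and ligation, the RNA of all 4 genes was lower in all 4 derivatives. LIG1, the ligase that joins Okazaki fragments, fell by -1.39 on average (SE 0.05, 2.63-fold, adjusted p = 8.43e-09). In DLD1 it stood at 5.83 and 5.74 without glutamine against 7.65 and 7.60 with it in DLD1 Mut cells, and 6.27 and 6.31 without against 7.64 and 7.46 with glutamine in DLD1 WT cells. For HCT116 the values were 6.27 and 6.29 without glutamine against 7.44 and 7.58 with it in HCT116 Mut cells, and 6.13 and 6.05 without against 7.32 and 7.36 with glutamine in HCT116 WT cells. Every array without glutamine was over 1 log2 unit below every array with it in each derivative. FEN1, the flap endonuclease, was at 7.26 and 7.35 without glutamine against 8.16 and 8.14 with it in DLD1 Mut cells, and 7.74 and 7.59 without against 8.14 and 7.97 with glutamine in DLD1 WT cells. Its HCT116 levels were 7.30 and 7.32 without glutamine against 8.08 and 8.07 with it in HCT116 Mut cells, and 7.01 and 7.14 without against 8.17 and 8.33 with glutamine in HCT116 WT cells. RNASEH2A, the catalytic subunit of the RNase that removes ribonucleotides, was at 8.13 and 8.26 without glutamine against 9.07 and 9.04 with it in DLD1 Mut cells, and 8.59 and 8.66 without against 9.02 and 8.85 with glutamine in DLD1 WT cells. On the HCT116 arrays the level was 7.92 and 7.94 without glutamine against 8.91 and 8.83 with it in HCT116 Mut cells, and 7.43 and 7.44 without against 8.85 and 8.80 with glutamine in HCT116 WT cells. DNA2, the nuclease for long flaps, fell by -0.66 in HCT116 Mut to -1.25 in HCT116 WT cells. CHAF1A and CHAF1B form the chromatin assembly factor that loads histones behind PCNA. CHAF1A was at 7.44 and 7.50 without glutamine against 8.17 and 8.30 with it in DLD1 Mut cells, and 7.86 and 7.75 without against 8.16 and 8.11 with glutamine in DLD1 WT cells. The HCT116 arrays read 7.33 and 7.60 without glutamine against 8.33 and 8.17 with it in HCT116 Mut cells, and 6.86 and 6.85 without against 8.34 and 8.32 with glutamine in HCT116 WT cells. CHAF1B was at 7.36 and 7.52 without glutamine against 8.47 and 8.55 with it in DLD1 Mut cells, and 8.14 and 7.96 without against 8.39 and 8.31 with glutamine in DLD1 WT cells. In HCT116 it stood at 7.13 and 7.04 without glutamine against 8.13 and 7.96 with it in HCT116 Mut cells, and 6.96 and 7.25 without against 8.11 and 8.08 with glutamine in HCT116 WT cells. CHAF1A fell in all 4 derivatives, and CHAF1B in 3, with -0.30 (adjusted p = 0.0898) in DLD1 WT cells.

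Averaged over genotypes, most of the genes fell further in HCT116 than in DLD1 cells. The median changes given above differed between the WT derivatives of the lines and were nearly equal between their Mut derivatives. The line difference within each genotype was not tested. In the test of the difference itself, DLD1 minus HCT116 and averaged over genotypes, 25 of the 45 had a less negative change in DLD1, against 10.0% of all tested genes in that direction, and LIG1 had a more negative one, against 8.93%. The change was more negative in HCT116 for 41 of the 45, and the median difference over all tested genes was -0.0008. PRIM1 had the largest difference, 1.40 (SE 0.09, adjusted p = 2.42e-05). MCM5 followed with 0.98, then MCM2 with 0.91, CDT1 with 0.82, RPA3 with 0.77, ORC6 with 0.71, MCM4 with 0.66 and RNASEH2A with 0.58. The LIG1 difference, -0.31 (adjusted p = 0.041), was not called without most single arrays, with adjusted p up to 0.0936. Across the 45 genes the changes of the derivatives correlated at r = 0.81 between DLD1 Mut and DLD1 WT, 0.66 between HCT116 Mut and HCT116 WT, and 0.49 to 0.74 between derivatives of different lines, as a description over genes measured on separate arrays.

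In DLD1 cells the change on withdrawal was more negative in Mut than in WT cells for 42 of the 45 genes, by sign alone and whatever the size. The median interaction over all tested genes was -0.02. The interaction of genotype and glutamine was called for 8, all more negative in Mut, against 0.568% of all tested genes in that direction and 0.255% in the other. At an unadjusted limma p under 0.05 the interaction was negative for 30 and positive for 0. The share of all tested genes at this unadjusted threshold is not given here. The 8 were the helicase genes MCM3 (-0.90, SE 0.13, adjusted p = 0.0177), MCM6 (-0.62) and MCM7 (-0.71), the GINS genes GINS2 (-0.97) and GINS4 (-1.11), and CDC6 (-0.73), RFC4 (-0.80) and PRIM1 (-0.68). None of the 8 calls held under every alternative. The count was 2 without DLD1 Mut replicate 2 with glutamine, 0 without any other DLD1 array, and 2 to 5 without any 1 HCT116 array, which enter through the shared estimate of spread. It was 22 with the trend and robust options of eBayes together and 0 with the DLD1 arrays alone.

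In HCT116 cells the direction was the other for most of the genes: 32 of the 45 had the more negative change in WT cells, again by sign alone. The median interaction over all tested genes was 0.0005. The interaction was called positive, a larger fall in WT, for 7 genes, and negative for 2, against 4.75% of all tested genes in each direction. The 7 were MCM10 (1.05, SE 0.16, adjusted p = 0.003), POLA2 (0.75), ORC6 (0.87), RFC3 (0.69), POLA1 (0.79), CHAF1A (0.69) and RNASEH2A (0.45). The 2 were MCM4 (-0.55) and GINS2 (-0.64), a number near the share of all tested genes called negative. GINS2 was called with a larger fall in Mut cells in both lines, but neither call held under every alternative. The 7 became 3 without WT replicate 1 with glutamine or Mut replicate 2 without it, and 4 without Mut replicate 2 with glutamine or WT replicate 2 without it. The 2 became 0 without either Mut array with glutamine, WT replicate 2 with it, Mut replicate 2 without it or WT replicate 2 without it. They became 1 without the other HCT116 arrays and without any 1 of the DLD1 WT arrays. With the HCT116 arrays alone the counts were 1 and 0. Whether the interaction itself differed between the lines was not tested.

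**Figure D4:**
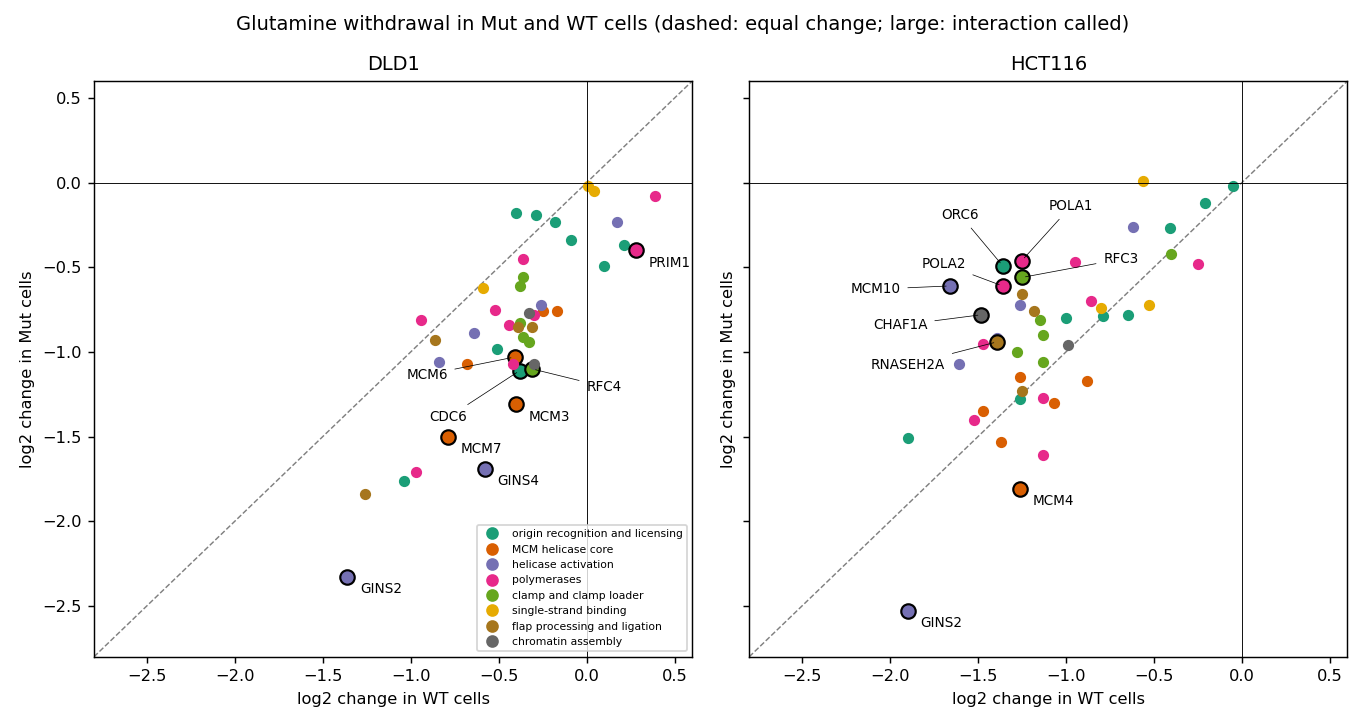
Log2 change on withdrawal in Mut cells (y axis) against that in WT cells (x axis) for the 45 genes in DLD1 (left) and HCT116 (right), coloured by step. The dashed line marks equal change and large outlined points are genes with a called interaction; 42 points lie below the line in DLD1, and 32 lie above it in HCT116.

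The levels without glutamine differed with genotype accordingly. In DLD1 cells without glutamine 19 genes were lower in Mut than in WT cells and 1 was higher, against 5.91% and 4.36% of all tested genes. CDC6 differed most, at 7.55 and 7.62 in DLD1 Mut cells, against 8.47 and 8.58 in DLD1 WT cells (difference -0.94, SE 0.08, adjusted p = 0.000107). MCM3 (-0.82), RFC4 (-0.82), GINS4 (-0.79) and GINS2 (-0.68) followed, and all 6 MCM core genes were lower in Mut cells, by -0.35 to -0.82. ORC2 was the higher one, at 7.91 and 8.01 in DLD1 Mut cells, against 7.61 and 7.59 in DLD1 WT cells (0.36). The 19 became 7 without replicate 1 and 10 without replicate 2 of the Mut group without glutamine, and 7 without replicate 1 and 10 without replicate 2 of the WT group. ORC2 was no longer called when any 1 of these 4 arrays was left out.

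In HCT116 cells without glutamine 18 genes were higher in Mut than in WT cells and 3 were lower, against 12.3% and 12.4% of all tested genes. ORC6 was at 7.41 and 7.52 in HCT116 Mut cells, against 5.84 and 5.72 in HCT116 WT cells (1.69, SE 0.11, adjusted p = 9.71e-06). MCM10 was at 8.29 and 8.30 in HCT116 Mut cells, against 7.10 and 7.23 in HCT116 WT cells (1.13). POLA1 (0.86), GINS3 (0.82), POLA2 (0.76) and RFC3 (0.73) were also higher. Lower in Mut cells were GINS2 (-0.62), MCM4 (-0.46) and MCM6 (-0.27), with MCM6 no longer called when any 1 of the 4 arrays was left out. These 3 were called lower in Mut cells without glutamine in both lines. Another 5 genes were called lower in DLD1 Mut and higher in HCT116 Mut cells than in their WT counterparts. The share of all tested genes with either pattern is not given here, so neither count can be set against a background.

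With glutamine fewer of the genes were called between the derivatives. In DLD1 cells GMNN (0.60), PRIM1 (0.41) and RFC5 (0.35) were higher in Mut than in WT cells and 0 of the 45 were called lower by limma, against 2.60% and 3.20% of all tested genes. At an unadjusted limma p under 0.05, 13 were higher and 1 was lower in Mut cells. The share of all tested genes at that threshold is not given here, and their median difference was 0.02. GMNN stood at 7.58 and 7.60 in DLD1 Mut cells, against 7.02 and 6.96 in DLD1 WT cells (adjusted p = 0.00847). These 3 became 1 without either Mut replicate or WT replicate 1, and 0 without WT replicate 2. In HCT116 cells only ORC6 was called among the 45, higher at 7.95 and 7.97 in HCT116 Mut cells, against 7.02 and 7.27 in HCT116 WT cells (0.81, adjusted p = 0.0038), against 1.12% of all tested genes higher and 2.12% lower. At an unadjusted limma p under 0.05, 5 were higher and 0 were lower in Mut cells, again without a share of all tested genes, whose median difference was 0.003. A further gene was called without either Mut array lacking glutamine. ORC6 was thus lower in HCT116 WT than in Mut cells in either medium.

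**Figure D5:**
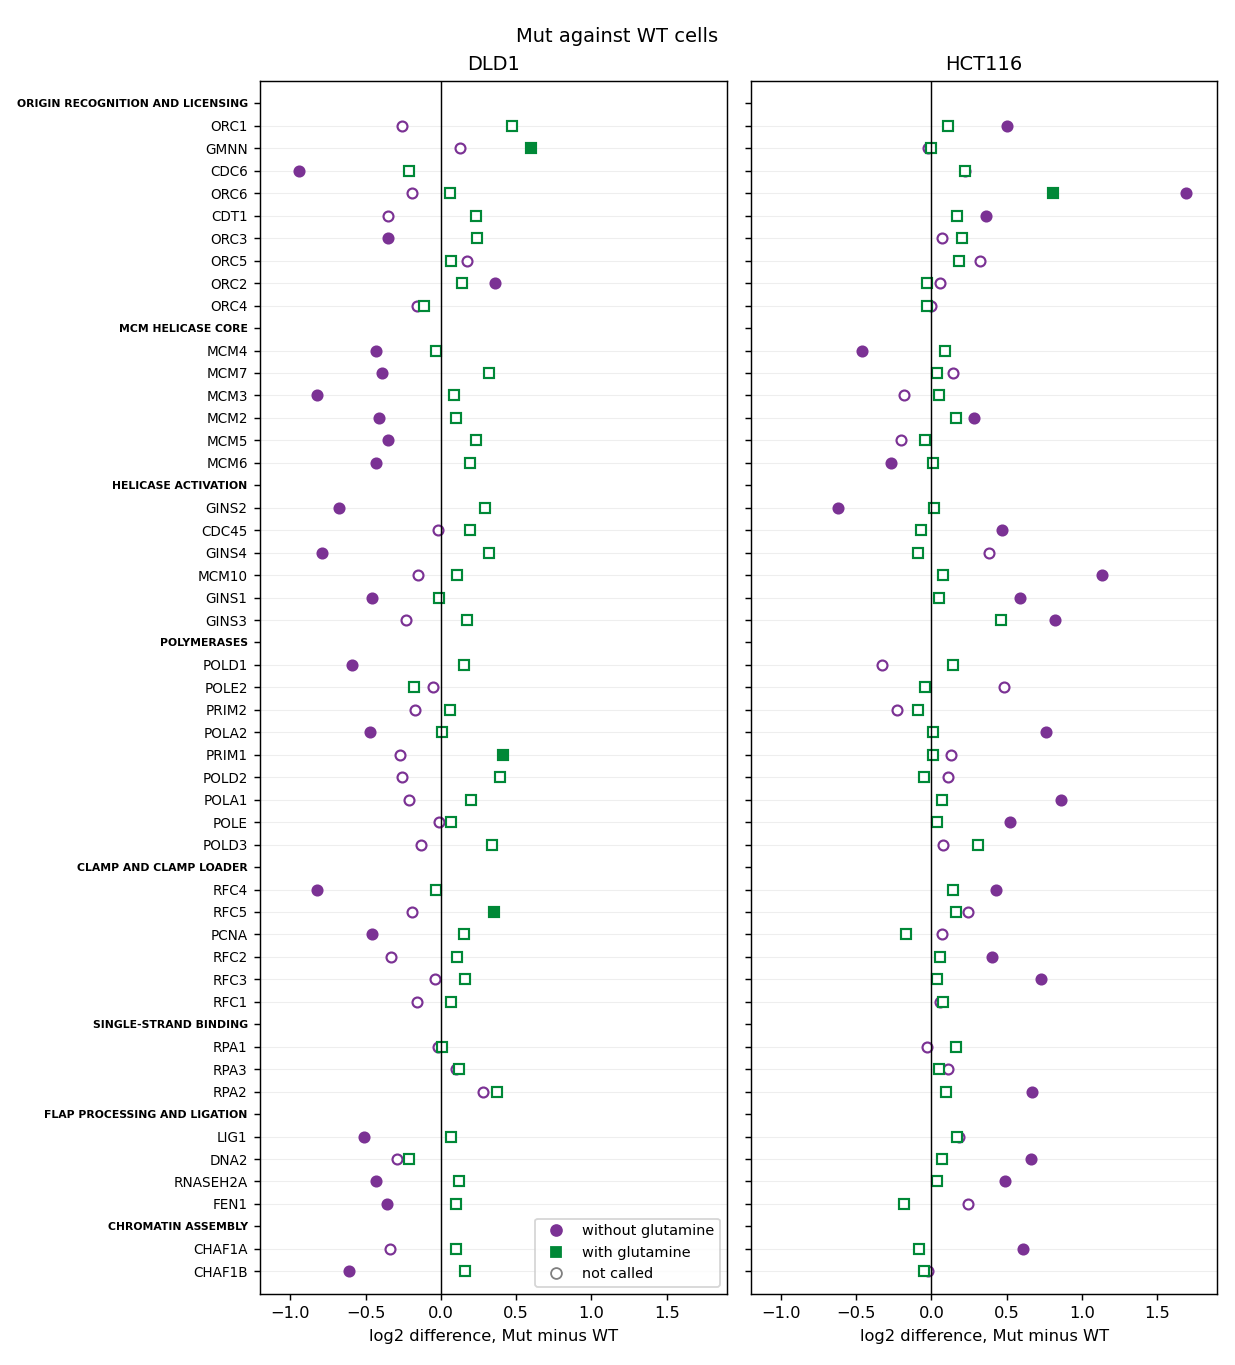
Log2 difference of Mut minus WT cells (x axis) for each gene (rows, by step) in DLD1 (left) and HCT116 (right), without (circles) and with glutamine (squares). Filled symbols are called; without glutamine most DLD1 circles lie left of 0 and most HCT116 circles right of it, whereas with glutamine 3 squares in DLD1 and 1 in HCT116 are called.

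Between the lines in glutamine medium, averaged over genotypes, 16 of the 45 were higher and 14 lower in DLD1 than in HCT116 cells, against 24.5% and 22.5% of all tested genes. Of the origin recognition complex ORC1, ORC2, ORC4, ORC5 and ORC6 were higher in DLD1 (0.28 to 0.52) and ORC3 was lower (-0.30). GINS4 (0.95) and GINS3 (0.41) were higher, while GINS1 (0.0) and GINS2 (-0.20) were not called. POLA2 was higher (0.80), and POLA1 (-0.28), PRIM1 (-0.46) and PRIM2 (-0.49) were lower. PCNA was higher (0.34), and its loader genes RFC2 (-0.27), RFC3 (-0.38) and RFC4 (-0.55) were lower, with RFC1 and RFC5 not called. CDT1 (-1.02) and POLE (-0.94) were the lowest in DLD1 relative to HCT116.

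Other genes of the S-phase programme were lower too. On average withdrawal 23.5% of all tested genes fell and 24.3% rose, the shares to set beside each count in this paragraph. Of 36 tested origin-firing, fork and replication-coupled factors outside the 45, 27 fell and 4 rose on average, with a median of -0.61. DSCC1, of the cohesion-linked clamp loader, fell by -1.5, the fork protector TIMELESS by -1.19, the exonuclease EXO1 by -1.11 and the histone chaperone ASF1B by -0.90. POLD4, the small accessory subunit of polymerase delta, rose by 0.87 on average (adjusted p = 1.48e-05), with 1.45 in HCT116 WT cells, where the catalytic POLD1 changed by -1.13. All 21 tested genes of nucleotide supply changed: 20 fell, among them TYMS (-1.30), the thymidylate synthase, PAICS (-0.92) of purine synthesis and the reductase subunit RRM1 (-0.70), and RRM2B, the p53-regulated reductase subunit, rose (0.68). Of 31 G1/S regulators 16 fell and 6 rose, median -0.23, with CCNE1, cyclin E1, at -1.34, SKP2 at -1.39, MYBL2 at -1.38 and the CDK inhibitor gene CDKN2B at 1.65.

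Among mitotic genes most were called lower in HCT116 WT cells and few in HCT116 Mut cells. Of 28 tested, 6 fell and 7 rose in HCT116 Mut cells (median 0.02), against 16.5% and 16.4% of all tested genes. In HCT116 WT cells 24 fell (median -0.77), against 10.1% of all tested genes, and the interaction was called positive for 23, against 4.75%. Of the 45 replication genes 40 fell in HCT116 Mut cells, with a median of -0.80. In DLD1 Mut cells 17 of the 28 mitotic genes fell and 2 rose (median -0.31), against 16.8% of all tested genes in each direction, and in DLD1 WT cells 7 fell and 2 rose (median -0.03), against 13.0% and 14.0%. Whether the share of cells in each cycle phase differed between the groups was not measured, and its part in these changes was not tested.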

How the data were processed

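The authors deposited 1 intensity per probe set and array, on a linear scale; the method of any normalization is not given in the sources used here. Per the labels' protocols, total RNA was labelled with biotin by the Affymetrix whole-transcript protocol. Log2 of each intensity was taken here without a pseudocount or further normalization. Of 53617 probe sets 23871 had exactly 1 symbol and were used, and for genes with several the brightest was kept; the others were left out. Genes in the upper 70% of mean level (15676, lowest mean 1.65) entered limma 3.58.1 (lmFit and eBayes, R 4.3.3), in 1 fit of 8 group means over 16 arrays, 8 residual and 2.49 prior degrees of freedom, in 13 contrasts. P-values were adjusted by Benjamini-Hochberg over all tested genes and called under 0.05. SE values come from limma, and a fold is 2 raised to the absolute log2 change. The fit was tested on simulated data.

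The 45 members and the gene lists were chosen with earlier results of these data known. Levels on every array are given for the member of each step with the largest and the smallest average change, members called lower in fewer than 2 derivatives or higher in any, and up to 6 of lowest adjusted p for the line difference, each interaction and each genotype contrast; MCM7 was added after its values were seen. Of other lists up to 4 called genes in the main direction and 1 in the other are named. Alternatives were the filter on dim genes, quantile normalization, a shift to the same median, the mean of probe sets, a replicate block, eBayes with trend and robust, each line alone, and each array left out. Levels of different probe sets are not compared. Motif letters were searched in the first RefSeq window of each gene.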

Additional observations from a re-analysis of the deposited data

Results flagged for a closer look

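By the test of the difference, DLD1 minus HCT116 and averaged over genotypes, 10.0% of all tested genes were called higher and 8.93% lower. Among the 45 replication genes the responses to withdrawal differed between the lines for 26. With the smallest adjusted p were PRIM1 (log2 difference 1.40), MCM5 (0.98), MCM2 (0.91), CDT1 (0.82), MCM4 (0.66) and RNASEH2A (0.58), all with the larger fall in HCT116 cells.

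In DLD1 the interaction was called lower for 0.568% and higher for 0.255% of all tested genes. By this term Mut and WT cells of DLD1 differed in their response for 8 replication genes, and 0 of these calls held under every alternative. The 6 with the smallest adjusted p were MCM3 (-0.90), GINS4 (-1.11), CDC6 (-0.73), RFC4 (-0.80), GINS2 (-0.97) and MCM6 (-0.62), with the larger fall in Mut cells. In HCT116 cells the interaction was called for 9 replication genes, against 4.75% of all tested genes in each direction. Of the 9 calls 1 held under every alternative. The 6 with the smallest adjusted p, MCM10 (1.05), POLA2 (0.75), ORC6 (0.87), RFC3 (0.69), POLA1 (0.79) and CHAF1A (0.69), had the larger fall in WT cells. Called the other way were MCM4 (-0.55) and GINS2 (-0.64).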

How the results depend on the processing

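No called value of a replication gene changed sign under any alternative, and 223 of the 313 calls, over 13 contrasts, held under all of them, including all 42 falls on average withdrawal. Falls held under every alternative for 33 of 38 genes in DLD1 Mut, 14 of 34 calls in DLD1 WT, 35 of 40 in HCT116 Mut and 39 of 41 in HCT116 WT cells. The 2 rises in DLD1 WT cells became 0 with no filter on dim genes and 1 with quantile normalization, with arrays shifted to the same median, with either replicate block and with each line alone. The 1 more negative response of DLD1 (LIG1) became 0 with no filter, with the median shift and with either block. The 8 interactions in DLD1 became 2 with no filter, 17 with genes above the median level, 3 with the median shift, 5 with a replicate block over all arrays, 0 with a replicate block within each line, 22 with trend and robust and 0 with each line alone. In HCT116 the 7 positive interactions became 12 with genes above the median, 11 with trend and robust and 1 with each line alone, and the 2 negative ones 1 with no filter and 0 with each line alone. In DLD1 with glutamine the 3 genes higher in Mut became 1 with no filter, 6 above the median, 1 with the block within each line, 9 with trend and robust and 1 alone. In DLD1 without glutamine 1 higher and 19 lower became 0 and 12 alone. In HCT116 with glutamine the 1 higher became 2 above the median, 2 with trend and robust and 0 alone. Fits of each line alone have fewer arrays; the cause of the other shifts was not tested.

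With each array left out in turn the counts were 34 to 38 lower and 0 higher for withdrawal in DLD1 Mut, 15 to 32 lower and 0 to 2 higher for withdrawal in DLD1 WT, 36 to 40 lower and 0 higher for withdrawal in HCT116 Mut, 39 to 42 lower and 0 higher for withdrawal in HCT116 WT, 42 to 43 lower and 0 higher for average withdrawal. They were 0 to 1 lower and 19 to 24 higher for the DLD1 minus HCT116 response, 0 to 5 lower and 0 higher for the DLD1 interaction, 0 to 2 lower and 3 to 7 higher for the HCT116 interaction. For the levels they were 0 lower and 0 to 4 higher for Mut against WT in DLD1 with glutamine, 7 to 19 lower and 0 to 1 higher for Mut against WT in DLD1 without glutamine, 0 lower and 1 to 2 higher for Mut against WT in HCT116 with glutamine, 2 to 3 lower and 13 to 18 higher for Mut against WT in HCT116 without glutamine, 12 to 14 lower and 14 to 18 higher for the lines with glutamine.

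Samples with the same replicate number did not deviate together across genes: correlations over 28 pairs of groups were -0.036 to 0.033. These values cannot tell whether samples were handled in matched sets. Beyond the counts above the block moved no count by over 1.5 times. With 2 arrays a group, limma's p-values set each difference against the spread between replicate cultures, shared over the 8 groups. This spread does not cover variation between clones, and the labels do not say whether each derivative is 1 clone. Where an array was left out, the 1 lone array of its group was assumed to vary like the other groups. A probe set reads a whole transcript, so shared or alternative transcripts were not separated, and protein levels and cell-cycle phase were not measured.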
